A study of Ovis aries with 15 samples.

Results

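The insulin-like growth factor (IGF) axis was followed through ovine longissimus dorsi (LD) muscle as 10 genes: the ligands IGF1 and IGF2, the receptors IGF1R, IGF2R and GHR, and the binding proteins IGFBP2, IGFBP3, IGFBP4, IGFBP5 and IGFBP6. Every probe set whose only annotated symbol is one of these genes was taken, which gave 29 of the 24016 probe sets on the array that are not controls. A further 2 probe sets carry both FBXO4 and GHR and were left out. The animals were Dorset/Suffolk/Rambouillet cross-bred sheep sampled at 5 stages with 3 animals and 3 arrays a stage: fetuses at 80 d (3 males), 100 d and 120 d (2 males and 1 female each), newborn lambs at 150 d of development, 1 to 3 days after birth (3 males), and young lambs at 230 d, 83 days after birth (3 males). Different animals were taken at each stage, and the labels do not say which animals were female. The array, Affymetrix's Bovine Genome Array, was given labelled sheep RNA, and a cattle probe that differs in sequence from the sheep transcript may read low.

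IGF1 and IGF2 are small secreted growth factors related to insulin, and both signal through the tyrosine kinase receptor IGF1R to promote the proliferation, differentiation and growth of muscle cells. IGF2R, which is also the cation-independent mannose 6-phosphate receptor, takes IGF2 to the lysosome, and the binding proteins hold the ligands outside the cell and set how much of them reaches the receptors. IGF2 is known as a growth factor of the fetus, and the genes IGF2 and IGF2R are imprinted, whereas growth hormone acting through its receptor GHR is the main known driver of IGF1 after birth. In the sheep reference assembly ARS-UI_Ramb_v3.0 all 10 genes were found, with IGF2 next to INS, IGFBP2 next to IGFBP5, IGFBP3 next to IGFBP1, and GHR next to FBXO4.

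The signal is the MAS5 intensity as deposited, on a linear scale on which the authors set the mean of every array to 200. Of the 29 probe sets, 19 reached a signal of 50 on at least 3 of the 15 arrays and were tested, among 15998 such probe sets in all. Where a gene has several probe sets they are called the brightest, the second and so on by mean log2 signal over the 15 arrays. Tested were all 4 of IGF1, all 4 of IGF2, 1 of 2 of IGF1R, both of IGF2R, both of IGFBP3, the single probe sets of IGFBP2, IGFBP4, IGFBP5 and IGFBP6, and 2 of 11 of GHR. Some of the 19 passed this filter only through the stages where they were bright, so a count over them describes these probe sets and no more. Stages were compared with limma on log2 signal, with a Benjamini-Hochberg adjusted p under 0.01 taken as passing, and rose and fell are used only of such changes. The array median was 51.4 in 150 d replicate 2 and 59.5 to 69.4 in the other arrays, and 50.7% of probe sets reached 50 there against 53.7% to 58.1% elsewhere. The log2 signals of arrays of a stage correlated with an r of 0.891 to 0.948. The muscle fibre markers on the array (6 of 8: ACTA1, CKM, DES, TNNT3, TNNC2 and MB) were bright at every stage, with a summed signal of 72417 ± 10854 (SD, n = 3) at 80 d and 205184 ± 31523 at 230 d. Since each array holds RNA of whole muscle, fewer cells of a type and less RNA per cell cannot be told apart.

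Of the 4 intervals between neighbouring stages, 120 d to 150 d had the most IGF axis probe sets that passed. It was also the interval in which the most of all tested probe sets passed (11.2%). In that interval 9 of the 19 tested probe sets fell and 0 rose, where 6.77% of all tested probe sets fell and 4.41% rose. The 9 belong to IGF2 (3 probe sets), IGF2R (2), IGFBP3 (2), IGFBP4 and IGFBP6. In 11 of the 19 all 3 newborn values lay below all 3 values at 120 d, against 22.9% of all tested probe sets. The median log2 fold change of the 19 was -0.87, while that over all tested probe sets was -0.15. When the arrays were rescaled to equal medians, the overall value was -0.028, and all probe sets that passed divided into 45.6% lower, against 60.5% lower as deposited, while the 5 IGF axis probe sets that still passed all fell. The 2 IGFBP3 probe sets, that of IGFBP4 and the second of IGF2 did not pass there. Each of the 15 fits with 1 array left out gave a count under 9. The count was lowest, 3, without 120 d replicate 3, where 3.12% of all tested fell. It was 5 without 120 d replicate 1, 120 d replicate 2 or 150 d replicate 2, where 4.22%, 4.15% and 3.99% of all tested fell. When the 6 arrays of 120 d and 150 d were fitted alone in limma, 0 of the 19 passed (lowest adjusted p = 0.0243, for the third IGF2 probe set). In that fit 0.0125% of all tested passed, so this count says nothing about the IGF axis in particular.

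None of the 19 probe sets passed in the fetal intervals, 80 d to 100 d (0.125% of all tested) and 100 d to 120 d (0.0563%). By limma without adjustment, 3 and 5 of the 19 had a p under 0.05 in these intervals, as did 8.24% and 7.44% of all tested. Between 150 d and 230 d, 2 of the 19 fell, 1 of IGF2 and that of IGFBP2, where 1.08% of all tested fell, and 1 fell without 150 d replicate 1, 230 d replicate 1 or 230 d replicate 3. Across the whole fetal span, from 80 d to 120 d, the 2 IGFBP3 probe sets rose, where 0.931% of all tested rose, and neither passed without 80 d replicate 2 or 120 d replicate 2. Nor did either pass when only the 6 arrays of 80 d and 120 d were fitted. From 120 d to 230 d, 9 fell, where 8.41% of all tested fell: 3 of IGF2, 2 of IGF2R, 2 of IGFBP3, and those of IGFBP2 and IGFBP6. These comparisons share arrays, those of 120 d above all, so their counts are not independent of each other.

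**Figure D1:**
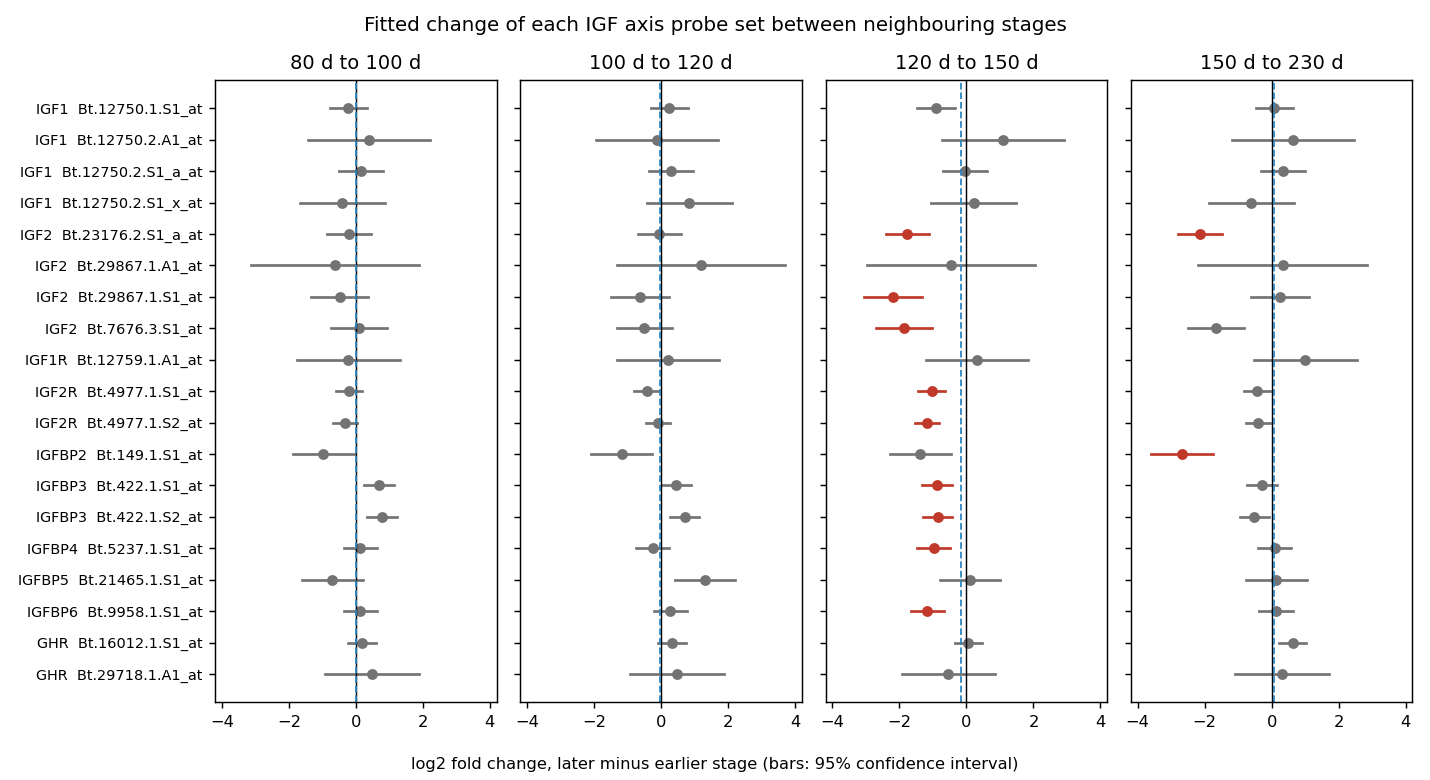
Fitted log2 fold change (x axis, later minus earlier stage) of the 19 tested IGF axis probe sets (y axis) over the 4 intervals, with bars for the 95% confidence interval, red for an adjusted p under 0.01 and a dashed line at the median of all tested probe sets. Red points mark 9 probe sets for 120 d to 150 d, all to the left of 0, 2 for 150 d to 230 d, and 0 for the 2 fetal intervals.

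IGF2, the fetal ligand, was bright in the fetus and fell in both later intervals. On its brightest probe set the 3 animals read 19409.9, 13411.7 and 16063.0 at 80 d, 15485.8, 13847.6 and 12639.2 at 100 d, and 17438.3, 12236.1 and 11252.0 at 120 d. After birth the same probe set read 6000.9, 4049.6 and 2531.3 at 150 d and 853.3, 749.9 and 1121.1 at 230 d. The 9 fetal values overlapped from stage to stage, every newborn value lay below all of them, and every value at 230 d lay below every newborn value. The fall was 3.39-fold from 120 d to 150 d (log2 fold change -1.76, SE 0.30, limma adjusted p = 0.00147) and 4.41-fold from 150 d to 230 d (-2.14, SE 0.30, adjusted p = 0.00197). Over both intervals it was 15.0-fold (adjusted p = 6.51e-06). Both neighbouring falls passed when any single array was left out, but neither did when only the 6 arrays of the stages compared were fitted (adjusted p = 0.0351 and 0.0933).

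The second IGF2 probe set followed the same course. It read 1345.3, 664.8 and 769.8 at 120 d, 325.5, 371.3 and 120.6 at 150 d, and 87.0, 77.2 and 69.8 at 230 d, with fetal values between 664.8 and 1511.6 in all. Again no fetal value overlapped a newborn value, and no newborn value overlapped one at 230 d. It fell 3.61-fold from 120 d to 150 d (-1.85, SE 0.38, limma adjusted p = 0.00470), and the difference from 150 d to 230 d, -1.65, did not pass (adjusted p = 0.0244). Without 120 d replicate 1 the first of these was -1.55 (adjusted p = 0.0210), and without 120 d replicate 3 it was -1.95 (adjusted p = 0.0136). The first also did not pass with array medians set equal, without the filter or with the 6 arrays of 120 d and 150 d alone. The second passed without 150 d replicate 3, the animal with the lowest newborn value (adjusted p = 0.00238).

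The other 2 IGF2 probe sets were dim. The third read 78.1 to 101.8 at 80 d, 31.4 to 51.7 at 120 d and 5.7 to 12.7 at 150 d, and fell in the last of these intervals (limma adjusted p = 0.00208, and 0.0119 without 120 d replicate 3). By 230 d it had also fallen from 120 d (adjusted p = 0.00352), although not without 120 d replicate 2 or 3 or 230 d replicate 2 (adjusted p up to 0.0174). No fold is given for it, since the geometric means of 120 d and both later stages lay under 50. The fourth read 3.7 to 134.8 over all 15 arrays, with overlapping stages and no change that passed. Across the 15 arrays the log2 signals of the 2 bright IGF2 probe sets correlated with an r of 0.98, while the fourth correlated with the brightest with an r of -0.12. Some erythroid markers moved with the fall of IGF2. The list of 5 genes (HBB, HBA, ALAS2, AHSP and SLC4A1) had a summed signal of 12397 to 13017.7 at 120 d, 284.4 to 591.8 at 150 d and 163.2 to 191.3 at 230 d. Of the 4 tested, ALAS2 and HBB fell from 120 d to either later stage, whereas HBA and AHSP passed in neither comparison. AHSP and SLC4A1 lay under a mean of 50 at every stage, and SLC4A1 was not tested. The part of these cells in the fall of IGF2 was not tested.

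IGF1, the ligand that growth hormone governs after birth, had no probe set that passed in any comparison, and its 4 probe sets did not move together. The brightest read 315.0, 238.1 and 181.8 at 120 d, 320.4, 159.2 and 242.6 at 150 d, and 337.1, 316.3 and 229.6 at 230 d. Those 3 stages overlapped each other, and the values at 80 d, 163.2 to 182.2, reached into the range of 120 d and 150 d. Its fitted difference from 120 d to 150 d was -0.047 (95% confidence interval -0.71 to 0.61, limma adjusted p = 0.933), and this small value changed sign to 0.079 with array medians set equal and to 0.14 after quantile normalization. The second IGF1 probe set read 122.3, 137.0 and 168.7 at 120 d and 80.7, 71.9 and 74.1 at 150 d, so that all newborn values lay below those at 120 d. That difference was -0.91 (SE 0.26) and did not pass (adjusted p = 0.0237). The 2 brighter IGF1 probe sets correlated with an r of -0.30 over the 15 arrays. The third read 12.3 to 111.8 and the fourth 6.2 to 71.6, with overlap of the neighbouring stages around birth.

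IGF2R, the receptor that clears IGF2, fell between 120 d and 150 d on both of its probe sets. The brighter one read 6271.7, 5706.2 and 5919.6 at 80 d, 5491.3, 4516.2 and 4287.7 at 100 d, and 4841.1, 3974.1 and 4441.3 at 120 d. It then read 1731.6, 2097.3 and 2048.6 at 150 d and 1547.3, 1563.8 and 1322.7 at 230 d. No newborn value reached the lowest fetal value, and those at 230 d lay below every newborn value. The fall from 120 d to 150 d was 2.26-fold (-1.17, SE 0.17, limma adjusted p = 0.000502). On the other the signal was 315 ± 46.4 (SD, n = 3) at 120 d and 152 ± 10.6 at 150 d, a 2.06-fold fall (-1.04, SE 0.18, adjusted p = 0.00160). Both falls passed with any single array left out, though not with the 6 arrays of the 2 stages alone (adjusted p = 0.0265 and 0.0353). The differences from 150 d to 230 d, -0.41 and -0.43, did not pass (adjusted p = 0.172 and 0.173), and from 120 d to 230 d the falls were 2.99-fold and 2.78-fold (adjusted p = 5.87e-05 and 0.000128).

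IGF1R, the signalling receptor of both ligands, was dim on this array. Its tested probe set read 21.4, 52.1 and 55.9 at 80 d, 72.5, 42.6 and 19.1 at 120 d, 70.7, 24.2 and 66.7 at 150 d, and 101.2, 71.2 and 128.4 at 230 d. The first 4 stages overlapped, the geometric mean was highest at 230 d, and no change passed (largest difference 1.32 from 120 d to 230 d, limma adjusted p = 0.188). The other IGF1R probe set read 3.1 to 57.8 and was not tested.

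GHR, the growth hormone receptor, was measured well by 1 of its 11 probe sets. On its brightest the 3 animals read 530.0, 424.5 and 540.6 at 80 d, 635.4, 566.6 and 498.8 at 100 d, and 609.1, 700.9 and 815.6 at 120 d. After birth it read 743.4, 689.9 and 770.2 at 150 d and 1190.8, 1295.5 and 930.9 at 230 d. Neighbouring stages overlapped up to 150 d, and the young lambs lay above all other animals. The difference from 150 d to 230 d was 0.62 (SE 0.19) and did not pass (limma adjusted p = 0.0732), nor did that from 120 d to 230 d, 0.68 (adjusted p = 0.0190), except with a variance trend and robust eBayes (adjusted p = 0.00751). A moderated F test over the 4 intervals together did pass for this probe set (adjusted p = 0.00238), as it did for 11 of the 19 tested probe sets and for 25.8% of all tested. A second tested GHR probe set read 11.5 to 68.9, and the 9 untested ones read 0.6 to 65.2 over all arrays.

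**Figure D2:**
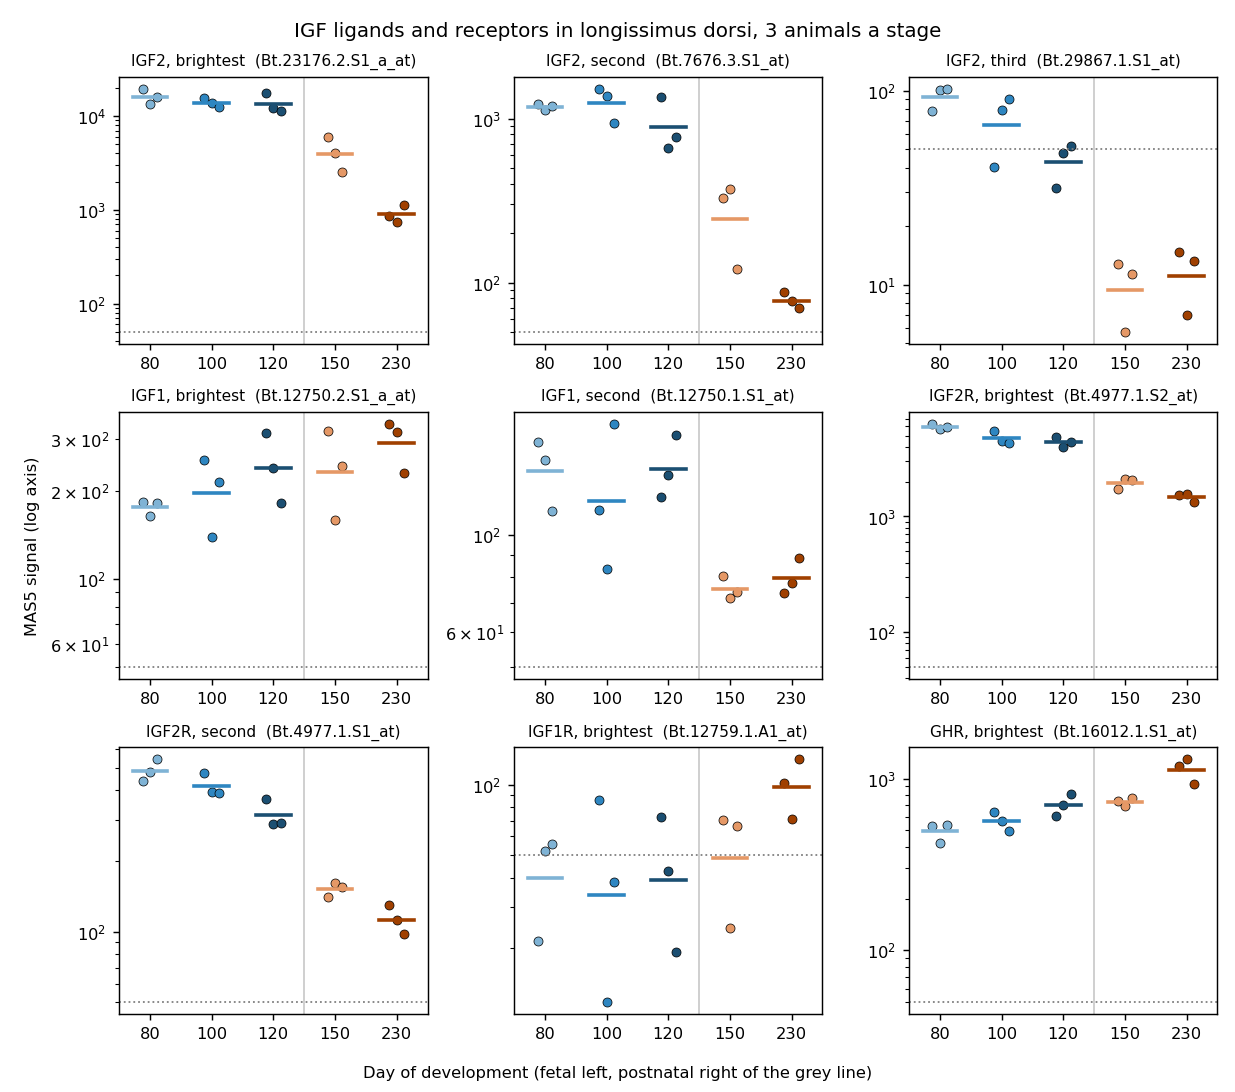
MAS5 signal (y axis, log scale) by day of development (x axis) for 9 probe sets of the IGF ligands and receptors, with a point for each of 3 animals a stage, a bar at the geometric mean and a dotted line at a signal of 50. The 3 IGF2 and 2 IGF2R panels drop between 120 d and 150 d with no overlap, whereas the tested IGF1R and the brightest IGF1 probe sets overlap across birth and GHR is highest at 230 d.

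Among the binding proteins, IGFBP2 had the widest range over the stages. Its probe set read 519.3, 547.8 and 662.8 at 80 d, 318.1, 245.2 and 318.3 at 100 d, and 104.6, 147.5 and 138.3 at 120 d. After birth it read 72.4, 22.9 and 73.7 at 150 d and 6.1, 13.1 and 5.8 at 230 d. Each stage lay below the one before with no overlap. Single intervals up to 150 d did not pass (differences of -0.97, -1.18 and -1.38, limma adjusted p = 0.568, 0.460 and 0.0341), nor did the fetal span as a whole (-2.16, adjusted p = 0.0143). That span passed in 5 of 8 other settings and without 150 d replicate 2 or 230 d replicate 2 (lowest adjusted p among the settings 0.000811). From 150 d to 230 d it fell (adjusted p = 0.00364), with geometric means of 49.6 and 7.74, both under 50, so no fold is given. Without 150 d replicate 1 or 3, or 230 d replicate 1 or 3, this last fall had an adjusted p of 0.0119 to 0.0142. From 120 d to 230 d the fall was at least 2.57-fold against a signal of 50 (adjusted p = 4.99e-05).

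IGFBP3, the main carrier of IGFs in the circulation, had a peak at 120 d on both of its probe sets. The brighter one read 627.0, 457.4 and 442.2 at 80 d, 745.4, 889.4 and 980.4 at 100 d, and 1288.8, 1623.2 and 1339.9 at 120 d. It then read 655.7, 884.9 and 800.9 at 150 d and 485.5, 534.7 and 613.5 at 230 d. No 2 neighbouring stages overlapped: each fetal stage lay above the one before it and each postnatal stage below. From 80 d to 120 d it rose 2.81-fold (1.49, SE 0.20, limma adjusted p = 0.00140), although not without 80 d replicate 2 (adjusted p = 0.0102) or 120 d replicate 2 (adjusted p = 0.0101). The other rose 2.20-fold over that span (1.14, SE 0.21, adjusted p = 0.00878), from 386 ± 41.2 to 849 ± 58.9 (SD, n = 3), and this rise passed in only 4 of the 15 fits with 1 array left out, where it was 1.07 to 1.22 with an adjusted p of 0.00785 to 0.0442. Neither rise passed when only the 6 arrays of 80 d and 120 d were fitted. The second rise also did not pass with array medians set equal or without the filter.

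From 120 d to 150 d the 2 IGFBP3 probe sets fell 1.82-fold (the brighter, limma adjusted p = 0.00923) and 1.83-fold (the other, adjusted p = 0.00969). These calls lie close to the threshold: with 1 array left out, the brighter passed only without 80 d replicate 1 (log2 fold changes of -0.96 to -0.74, adjusted p up to 0.0404) and the other only without 230 d replicate 1 or 2 (adjusted p up to 0.0371). Neither passed with array medians set equal, after quantile normalization, without the filter or with the 6 arrays of the 2 stages alone. The falls from 120 d to 230 d, 2.60-fold (adjusted p = 0.000450) and 2.23-fold (adjusted p = 0.00151), passed with any array left out. Endothelial markers were also highest at 120 d in sum. The summed signal of PECAM1, CDH5, KDR, VWF and TEK was 3162.5 to 3599.3 at 80 d, 5106.1 to 6146.4 at 120 d, 1662.6 to 3147.5 at 150 d and 2570.2 to 2846.1 at 230 d. In contrast to the brighter IGFBP3 probe set, this sum overlapped between 150 d and 230 d. Of these 5 genes, 3 fell from 120 d to 150 d (CDH5, PECAM1 and TEK), 2 fell from 120 d to 230 d (CDH5 and PECAM1), and none passed from 80 d to 120 d. The sum was mostly PECAM1 and CDH5: KDR had a mean of 56.2 at 80 d and 52.3 at 120 d, and for VWF the mean at 230 d, 226, was above the 205 of 120 d. The ratio of 3' to 5' actin signal, a measure of RNA integrity, also moved with the fetal rise, from 1.89 ± 0.289 at 80 d to 1.03 ± 0.103 at 120 d. The part of either in the course of IGFBP3 was not tested. The ratio changed over the same fetal stages in which IGFBP2 and IGF2R read lower with age, and its part there was not tested.

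IGFBP6, which binds IGF2 with preference over IGF1, fell between 120 d and 150 d. It read 2370.3, 3560.5 and 3177.8 at 120 d, 1403.7, 1107.5 and 1523.8 at 150 d, and 1481.4, 1139.8 and 1844.3 at 230 d. All 9 fetal values, the lowest of them 2077.3, lay above all 6 postnatal values, and the postnatal stages overlapped each other. The fall from 120 d to 150 d was 2.25-fold (-1.17, SE 0.23, limma adjusted p = 0.00352). It did not pass without 120 d replicate 2, 120 d replicate 3 or 150 d replicate 2 (-1.04, -1.12 and -1.03, adjusted p = 0.0174, 0.0166 and 0.0164). Up to 230 d it fell 2.05-fold from 120 d (adjusted p = 0.00569), although not without 120 d replicate 2 or 3 or 230 d replicate 1 or 2 (adjusted p up to 0.0266).

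IGFBP4, an inhibitory binding protein, read 255.0, 229.3 and 302.6 at 120 d and 98.1, 154.9 and 153.5 at 150 d. Its fetal values, 229.3 to 396.4, lay above its postnatal values, 98.1 to 155.6, with no overlap. The fall from 120 d to 150 d was 1.96-fold (-0.97, SE 0.23, limma adjusted p = 0.00910), and of the 15 fits with 1 array left out it passed only in that without 100 d replicate 1, with log2 fold changes of -1.09 to -0.76. Nor did it pass with array medians set equal, after quantile normalization, without the filter or with the 6 arrays of the stages compared alone. The list of 8 connective tissue fibroblast markers had a summed signal of 70636.8 to 73128.1 at 120 d, 46258.3 to 74589.1 at 150 d and 45047.7 to 53406.5 at 230 d, the last with no overlap with 120 d. Of the 8, FBN1 fell from 120 d to 150 d, and COL1A1, FBN1 and LUM fell from 120 d to 230 d. Their part in the falls of IGFBP4 and IGFBP6 was not tested.

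IGFBP5, which is known to rise as myoblasts differentiate, differed from the other binding proteins. It read 29.7, 80.9 and 90.6 at 80 d, 42.7, 44.4 and 26.7 at 100 d, 85.6, 62.1 and 143.2 at 120 d, 97.0, 78.2 and 124.4 at 150 d, and 129.5, 98.7 and 97.3 at 230 d. The last 3 stages overlapped, and the values at 100 d lay below those at 120 d. No change passed, and the difference from 100 d to 120 d was 1.30 (SE 0.42, limma adjusted p = 0.376). From 120 d to 150 d it was 0.10 (95% confidence interval -0.80 to 1.01).

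**Figure D3:**
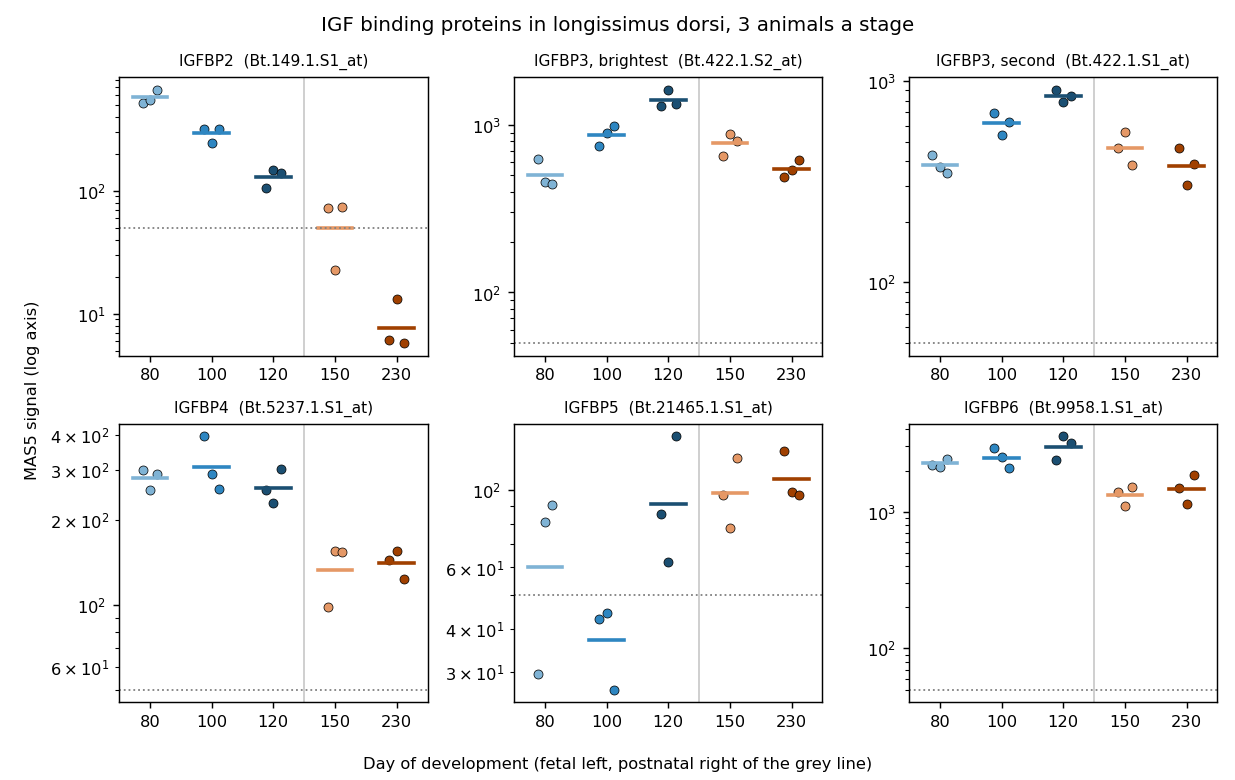
MAS5 signal (y axis, log scale) by day of development (x axis) for the 6 probe sets of IGFBP2 to IGFBP6, with a point for each of 3 animals a stage, a bar at the geometric mean and a dotted line at a signal of 50. IGFBP2 descends at every stage, both IGFBP3 panels peak at 120 d, IGFBP4 and IGFBP6 step down between 120 d and 150 d, and IGFBP5 overlaps from 120 d onwards.

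Genes that act around these ligands and receptors were taken from 3 lists of 74 genes, of which 44 have a probe set on the array and 37 were tested, by the brightest probe set of each. None passed in the first 3 intervals, where 0.125%, 0.0563% and 11.2% of all tested did. By limma without adjustment, 5, 2 and 6 of the 37 had a p under 0.05 in these, as did 8.24%, 7.44% and 35.1% of all tested. With quantile normalization, or with trend and robust eBayes, IGFBP7 and SHC1 fell from 120 d to 150 d. In the last interval STAT5B passed. At 120 d to 150 d the median log2 fold change of the 37 genes was -0.19, beside -0.15 for all tested probe sets. The 24 genes of insulin and IGF receptor signalling, the cascade below IGF1R from the insulin receptor substrates to AKT, mTOR and MAP kinases, had a median of -0.14, and the 6 of IGF availability, processing and the IGF2 locus one of -0.33.

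STAT5B, a transcription factor that growth hormone activates through GHR, read 409.8, 223.4 and 430.2 at 150 d and 688.4, 934.4 and 935.6 at 230 d. All values of the young lambs lay above those of the newborns and of the fetuses. It rose 2.48-fold (1.31, SE 0.24, limma adjusted p = 0.00806), where 0.944% of all tested rose, and passed only without 150 d replicate 3 when 1 array was left out (1.01 to 1.48, adjusted p = 0.00823 to 0.0295). It did not pass with array medians set equal (1.13, adjusted p = 0.0104), where GSK3B and SOCS2 fell instead. From 120 d to 230 d STAT5B rose 2.07-fold (adjusted p = 0.00709) and RPTOR, the raptor subunit of mTOR complex 1, rose 1.99-fold (adjusted p = 0.00864), where 5.79% of all tested rose. With 1 array left out, STAT5B passed over this span in 5 of 15 fits and RPTOR in 4 of 15.

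SOCS2, a suppressor of growth hormone signalling, read 1323.6, 1609.1 and 1640.0 at 120 d, 2014.1, 816.1 and 1505.6 at 150 d, and 433.1, 557.0 and 504.7 at 230 d. The young lambs lay below both earlier stages, and the newborns overlapped the fetuses. It fell 3.06-fold from 120 d to 230 d (limma adjusted p = 0.00307), and it did not pass without 120 d replicate 2, 120 d replicate 3 or 230 d replicate 1 (log2 fold changes of -1.71 to -1.52 over all 15, adjusted p up to 0.0138). IGF2BP3, a fetal RNA-binding protein whose targets include the IGF2 messenger RNA, read 131.0, 102.9 and 95.6 at 120 d and 8.5, 43.9 and 29.5 at 230 d. It fell at least 2.18-fold against a signal of 50 (adjusted p = 0.00421), where 8.41% of all tested fell, but not without any 1 of the 120 d arrays (adjusted p up to 0.0175). Its other probe set fell over the same span (adjusted p = 6.37e-05) and also from 150 d to 230 d (adjusted p = 0.00132), with both geometric means of that interval under 50.

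**Figure D4:**
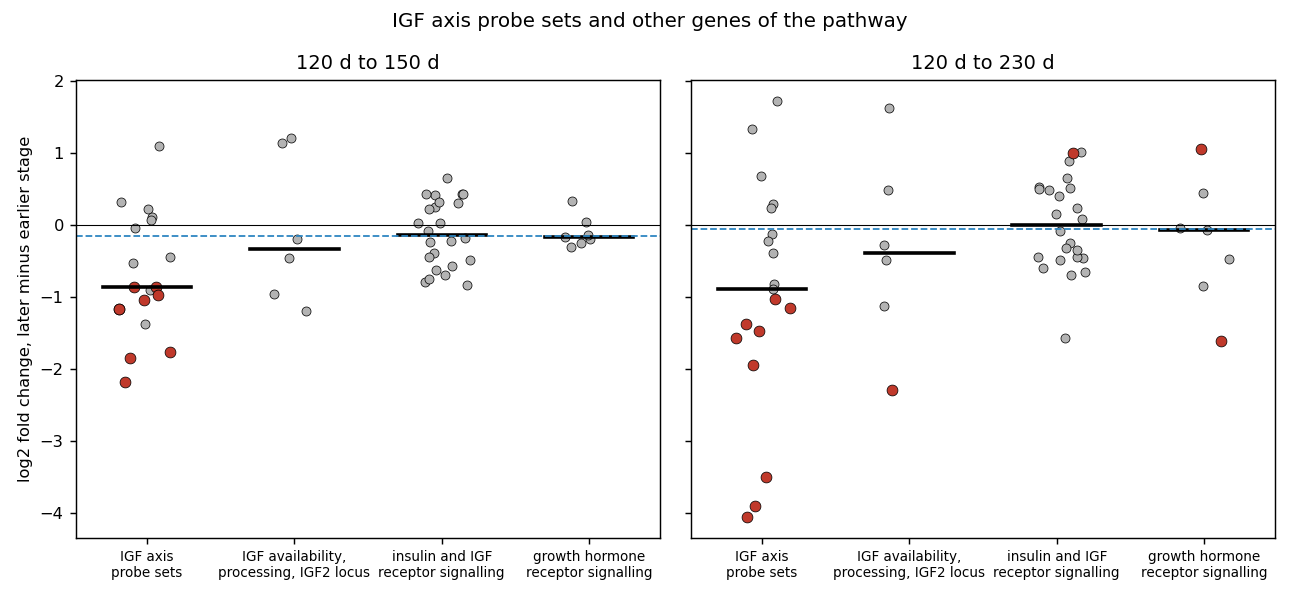
Fitted log2 fold change (y axis) from 120 d to 150 d (left) and from 120 d to 230 d (right) of the 19 IGF axis probe sets and of the 37 tested genes of 3 pathway lists (x axis), with red for an adjusted p under 0.01, black bars at each set's median and a dashed line at the median of all tested probe sets. At 120 d to 150 d the red points, 9 in number, all belong to the IGF axis, and at 120 d to 230 d there are 9 there and 4 in the lists. Of all tested probe sets, 11.2% passed from 120 d to 150 d and 14.2% from 120 d to 230 d.

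Some named genes followed the axis closely over the 15 arrays. Of 7543 genes searched, those most like IGF2 by Pearson correlation of log2 signal were NUDT2 (r = 0.98), the hemoglobin gene HBG (r = 0.97) and PPIB (r = 0.97). IGFBP2 was most like MEST, an imprinted gene expressed from the paternal allele (r = 0.97), LIMA1 (r = 0.97) and RAB34 (r = 0.97). IGF1, by its brightest probe set, was most like ENG, the endothelial receptor endoglin (r = 0.84), EPSTI1 (r = 0.84) and TAP2 (r = 0.83). All points of these correlations come from the same 15 arrays in 5 stages, so a shared stage difference alone gives a high r.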

How the data were processed

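RNA of LD muscle from 15 animals was hybridised to 1 bovine array each. The authors deposited MAS5 signal intensities, whose values show a linear scale. Per the study's methods, background was corrected by region of the array, perfect match and mismatch probes were combined by a Tukey biweight, and each array was scaled to a mean of 200. Stages were taken from the labels. The number of arrays limits the precision.

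Control probe sets (112) were removed. Of the other 24016 probe sets, 15998 (66.6%) read 50 or higher on 3 or more arrays and were kept. The 2 signals under 0.1 were set to 0.1 before log2. Symbols came from the platform annotation, in which 13292 probe sets have 1 symbol, 86 several and 10638 none. Comparisons of stages used limma 3.58.1 (R 4.3.3, lmFit and eBayes without a trend, all 15 arrays in 1 fit, 10 residual degrees of freedom), two-sided, with Benjamini-Hochberg adjustment over all kept probe sets within each comparison and a threshold of 0.01. Tested on simulated data for 120 d to 150 d over 15998 probe sets, with 50 changed at each size, the test found 0% of those changed 1.5-fold, 12% at 2-fold, 44% at 3-fold and 64% at 4-fold, with 1 false call. All other simulated probe sets were left unchanged, whereas 11.2% of all tested passed in the data for this interval. The adjusted p was therefore harder to bring under 0.01 in the simulation, and these shares may be too low for the data. Not passing still does not show that a gene stayed the same.

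Means with SD refer to linear signal. A fold against a stage with a geometric mean under 50 is a lower bound against 50. All members are named, with the pathway genes that passed, markers, and for IGF1, IGF2 and the member with the largest interval change (IGFBP2) the 3 genes most like it, each gene by its brightest kept probe set. The members and lists were chosen with earlier results of these data known. Replicate numbers name different animals, and deviations of arrays with the same number correlated with an r of -0.053 to 0.21 (median 0.035). Those of arrays with different numbers correlated with an r of -0.196 to 0.118 (median -0.018). Plots used matplotlib 3.10.9 (Python 3.11.15).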

Additional observations from a re-analysis of the deposited data

How the results depend on the processing

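The alternatives were 2 other scalings, an offset of 16 before log2, no filter or a signal of at least 100, eBayes with trend and robust, the moderated F test, only the 6 arrays compared, the replicate block and each array left out. Of 515 alternative values for the 22 IGF axis changes that passed, 407 stayed past the threshold, 108 did not and 0 changed sign. Of 567 for 24 changes that did not pass, 27 passed and 4, all of the brightest IGF1 probe set, changed sign. Of 116 for the 5 pathway gene changes, 53 did not stay. These totals count the F test as an alternative for each single interval, although it gives 1 p for all 4 intervals. A pass by it does not test the single interval. IGFBP2 from 80 d to 100 d had an adjusted p of 0.568 by limma and 2.43e-06 by the F test. The F test, which covers all 4 intervals at once, gave 11 IGF axis probe sets and 6 pathway genes, against 0 and 0 for 80 d to 100 d and for 100 d to 120 d, 2 and 1 for 150 d to 230 d, and 0 pathway genes for 120 d to 150 d. Of all tested, 25.8% passed it. The 9 IGF axis calls for 120 d to 150 d became 5 with array medians equal, 5 without the filter, 0 with 6 arrays and 3 to 7 with an array left out. The share of all tested that passed was 11.2% in the main fit, and 9%, 4.62%, 0.0125% and 5.53% to 11% in these. The 0 pathway genes of that interval became 2 after quantile normalization, 1 at a signal of 100 and 2 with trend and robust, where 9.33%, 19.1% and 14.6% of all tested passed. For 150 d to 230 d the 2 IGF axis calls became 1 without the filter, 0 with 6 arrays and 1 to 2 with an array left out, and the 1 pathway gene, STAT5B, became 2 others with array medians equal (GSK3B and SOCS2), 0 without the filter, 3 with trend and robust, 0 with 6 arrays and 0 to 1 with an array left out. The share of all tested was 2.03% in the main fit, 1.93% with array medians equal and 0.496% without the filter. It was 3.7% with trend and robust, 0% with 6 arrays and 0.85% to 1.63% with an array left out. For 80 d to 120 d the 2 calls became 1 without the filter, 1 with 6 arrays and 0 to 3 with an array left out. The 1 with 6 arrays was a fall of IGFBP2, and neither IGFBP3 probe set passed there. All tested went from 1.31% to 0.529%, 0.425% and 0.613% to 1.48% in these fits. For 120 d to 230 d the 9 became 4 with 6 arrays and 7 to 10 with an array left out, and all tested went from 14.2% to 2.86% and 8.29% to 14.6%. With the replicate number as a block, IGF axis calls were 7 for 120 d to 150 d, 2 for 150 d to 230 d, 9 for 120 d to 230 d and 1 for 80 d to 120 d, and pathway genes 0 for 150 d to 230 d. In that fit 10.6%, 1.6%, 13.8% and 1.08% of all tested passed in these 4 comparisons. The numbers come from different animals, and the labels give no pairing by them. The brightest IGF1 probe set, -0.047 from 120 d to 150 d, turned to 0.079 with array medians equal and 0.14 after quantile normalization, and was -0.28 to 0.22 with an array left out. The causes were not tested, other than that fewer arrays, or more dim probe sets, enter some of these fits.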
